A study of Mus musculus with 6 samples.

Results

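The 10 genes described here encode the proteins that tie integrin adhesion sites to the actin cytoskeleton, together with caveolin-1. They are the paralogous talin genes Tln1 and Tln2, the vinculin gene Vcl, the alpha-parvin gene Parva, the integrin-linked kinase gene Ilk, the scaffold genes Pxn and Bcar1, the kinase gene Src, the zyxin gene Zyx and Cav1. They were taken by name from a table of 35275 mouse genes, in which all 10 were found, and 9 of the 10 were among the 11500 genes abundant enough to be tested. Messenger RNA came from bulk cultures of ID8-KMF, a mouse ovarian cancer line of C57Bl6/J origin that was derived from ID8 cells by passage in mice. The knockout group was 3 libraries of Rgnef-/- cells, and the GFP-Rgnef group was 3 libraries of Rgnef-/- cells that re-expressed GFP-tagged Rgnef from a lentivirus. Rgnef (gene Arhgef28) is a guanine nucleotide exchange factor that binds focal adhesion kinase. Both groups therefore carry the Rgnef deletion, both were grown subconfluent on plastic seeded with Matrigel, and the comparison shows what differs with the construct present. Effects of Rgnef, of its tag and of the virus cannot be told apart, and no unedited line is compared here. Neither separate cultures nor the number of clones behind each line are stated in the labels, so a p-value here weighs a difference against variation among 3 libraries per group that may be only technical. In bulk RNA, fewer cells of a kind and less RNA per cell cannot be told apart.

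Focal adhesions are the sites where integrins, the receptors for matrix, gather a cytoplasmic plaque. Talin binds the integrin tail and actin, vinculin strengthens that link, and integrin-linked kinase with parvin and PINCH forms a parallel complex at the same tails. Paxillin and p130Cas (Bcar1) are scaffolds phosphorylated by focal adhesion kinase and Src, zyxin joins adhesions that are under tension, and caveolin-1 coats the small membrane pits called caveolae and is itself a Src substrate.

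The libraries had implied depths of 15898965 to 17977069 reads. Arhgef28 had 12 to 14 reads in each knockout library against 5067 to 6095 in each GFP-Rgnef library, so the labels matched the targeted gene (difference -5.58, SE 0.089, limma adjusted p = 3.02e-08). Of 9 epithelial and mesothelial markers chosen for the labelled cells, 7 reached 1 FPKM, and their summed level was 1548 to 2483 FPKM in knockout libraries and 1657 to 2465 FPKM in GFP-Rgnef libraries. The largest part of that sum was Krt19, which averaged 1085 FPKM in knockout and 1188 FPKM in GFP-Rgnef libraries. Krt19 was lowest in the libraries numbered 3, at 679 and 794 FPKM. Krt7 and Epcam stayed below 1 FPKM, and Krt18 was the one marker of that list to pass the test described below, at 224 FPKM in knockout and 320 FPKM in GFP-Rgnef libraries (limma adjusted p = 0.00625). Upk3b had the largest ratio of the tested markers, at 319, 318 and 116 FPKM in knockout libraries and 120, 115 and 42.6 FPKM in GFP-Rgnef libraries, with groups that overlapped and a limma adjusted p of 0.0878. Cdh1 was lower in every knockout library, at 3.30 to 6.58 FPKM against 7.10 to 7.62 FPKM in GFP-Rgnef libraries (limma adjusted p = 0.142), and Epcam too lay below its GFP-Rgnef range. Krt19, Upk3b, Cdh1 and Epcam were picked for mention after their values were seen, and the part of these markers in the members' differences was not tested. Of the leukocyte, endothelial, adipocyte, smooth muscle and skeletal muscle markers, 13 in all, 0 reached 1 FPKM in any library. The macrophage list reached 1 FPKM only through Cd68, with Adgre1 at 0 and Csf1r below 1 FPKM.

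RNA of 4 of the 9 tested genes was higher in knockout cells than with GFP-Rgnef: Cav1, Zyx, Parva and Tln2. Their mean levels were 1.35 to 1.58 times those with GFP-Rgnef. Tln1, Vcl and Bcar1 did not pass the test, and neither did Pxn and Src, whose knockout values were the lower ones. A gene passed when limma, fitted over all tested genes on log2(FPKM + 1), gave a Benjamini-Hochberg adjusted p below 0.05. FPKM are fragments per length of transcript, scaled to library depth, and differences are knockout minus GFP-Rgnef. Over all 11500 tested genes 8.04% passed as higher and 5.34% as lower. Of the 9 members 0 passed as lower by limma, also 0 by voom on recovered reads, and 2 (Pxn and Src) had a limma p below 0.05 before adjustment in that direction. All 3 knockout libraries lay above all 3 GFP-Rgnef libraries for 4 members and below them for 2, against 16.7% of all tested genes in each direction. The median difference of the 9 members was 0.20 on the log2 scale, beside -0.02 over all tested genes.

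**Figure D1:**
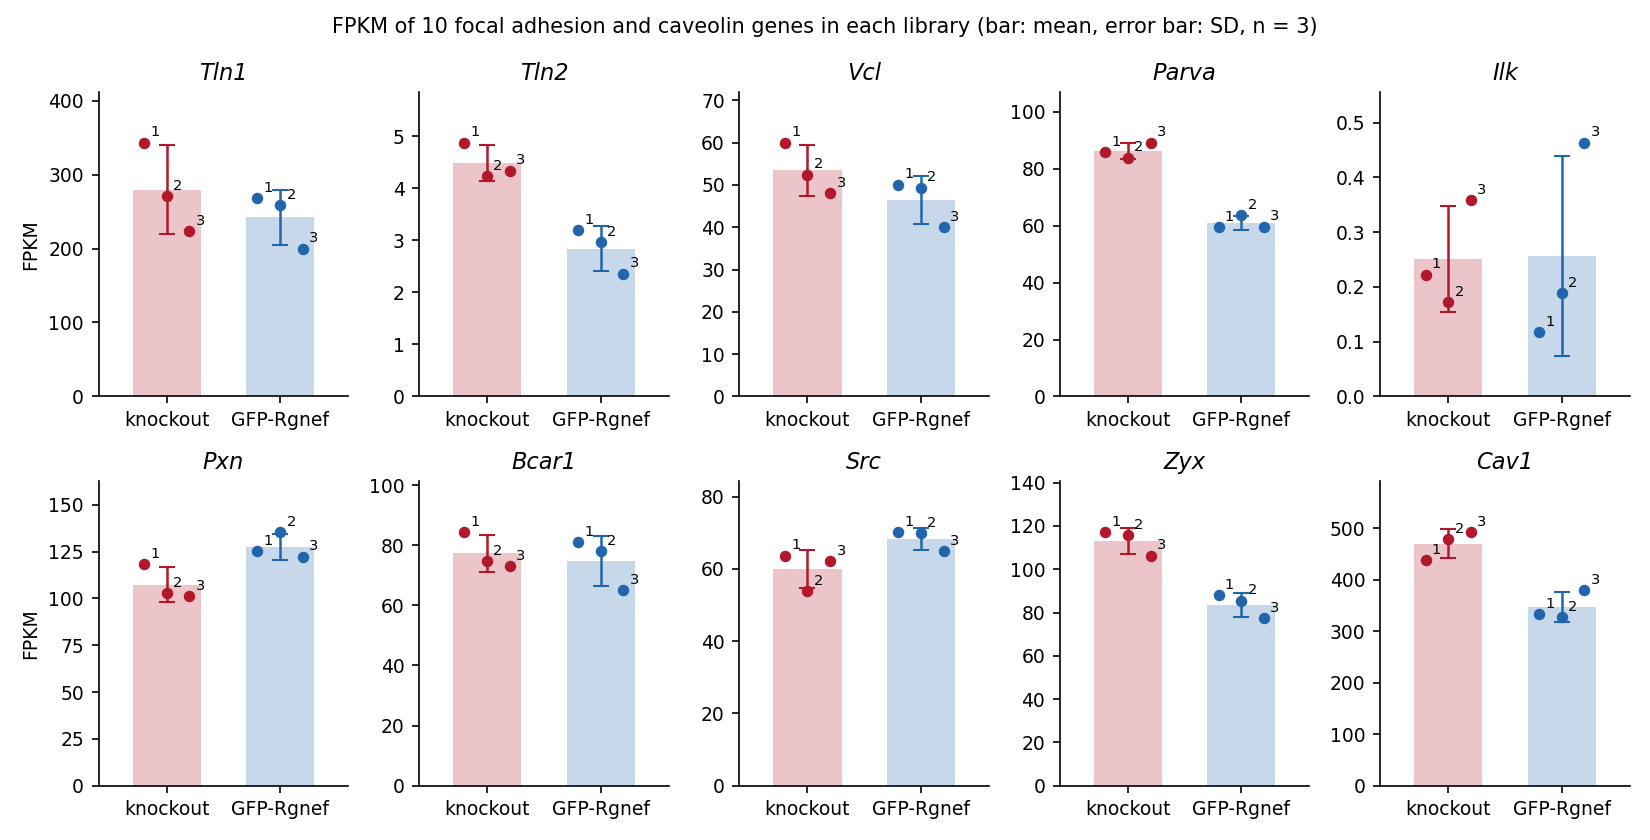
FPKM of each of the 10 genes in the 3 knockout libraries (red, left) and the 3 GFP-Rgnef libraries (blue, right), with the library number beside each point, the mean as a bar and the SD as an error bar. The groups are separate for Tln2, Parva, Zyx and Cav1, which are higher in knockout cells, and for Pxn and Src, which are lower, while the axis of Ilk ends below 1 FPKM.

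The talins and vinculin form the direct link between integrins and actin. Tln1 (ENSMUSG00000028465, GRCm38 chromosome 4, 43531519 to 43562691, minus strand), the widely expressed talin, had 343, 271 and 224 FPKM in knockout libraries 1 to 3, against 268, 259 and 200 FPKM in GFP-Rgnef libraries 1 to 3. The groups overlapped, and 7 of the 9 possible pairs of a knockout and a GFP-Rgnef library were higher in the knockout one. The fitted difference of 0.20 (SE 0.163) did not pass (limma adjusted p = 0.494). The spread between libraries was wide for Tln1, with a coefficient of variation of 21.5% in knockout and 15.2% in GFP-Rgnef libraries. Of its 9801 exon bases, 360 are shared with Creb3 on the opposite strand. Vcl (ENSMUSG00000021823, chromosome 14, 20929398 to 21033676, plus strand) had 60.0, 52.4 and 48.1 FPKM in knockout libraries, against 50.1, 49.3 and 39.95 FPKM in GFP-Rgnef libraries. The groups overlapped through 1 knockout library, and the difference of 0.20 (SE 0.112) did not pass (limma adjusted p = 0.286). Of its 8191 exon bases, 2090 are shared with Ap3m1 on the opposite strand, a gene at 42.3 to 47.2 FPKM in knockout and 40.4 to 49.2 FPKM in GFP-Rgnef libraries, and the handling of strand is not given in the sources used here.

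Tln2 (ENSMUSG00000052698, chromosome 9, 67217087 to 67559703, minus strand), the second talin, was scarce but higher in knockout cells. It had 4.87, 4.23 and 4.34 FPKM in knockout libraries, against 3.19, 2.96 and 2.36 FPKM in GFP-Rgnef libraries, from 733 to 884 reads against 411 to 548. No library of a group reached into the range of the other. The difference was 0.52 (SE 0.117, limma adjusted p = 0.0243). The call was lost without knockout 1, without knockout 2 or without GFP-Rgnef 2 (limma adjusted p = 0.0809, 0.0691 and 0.0712). It was also lost without a filter on low values (0.0776) and after chromosome centring, described below. Set against Tln1 in the same library, Tln2 made up 1.40%, 1.54% and 1.90% of talin FPKM in knockout libraries and 1.18%, 1.13% and 1.17% in GFP-Rgnef libraries. The means were 1.61% ± 0.260 and 1.16% ± 0.0240 (SD, n = 3 each), with a two-sided exact permutation p of 0.1, the smallest that 3 against 3 libraries can give. Lengthwise recalculation, described with the levels, put the share at 6.44% ± 0.983 in knockout and 4.69% ± 0.0939 in GFP-Rgnef libraries (SD, n = 3 each).

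Parva (ENSMUSG00000030770, chromosome 7, 112427505 to 112591692, plus strand) encodes alpha-parvin, which binds integrin-linked kinase and actin. It had 85.8, 83.9 and 89.2 FPKM in knockout libraries, against 59.6, 63.7 and 59.7 FPKM in GFP-Rgnef libraries. The libraries of each group lay close together, with coefficients of variation of 3.09% and 3.84%, and well apart from those of the other. The difference of 0.49 (SE 0.062) had the smallest p of the members (limma adjusted p = 0.00295) and ranked 154 among all tested genes.

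Ilk (ENSMUSG00000030890, chromosome 7, 105736592 to 105742925, plus strand), the kinase-like adaptor that holds parvin at integrins, was listed at 0.223, 0.172 and 0.358 FPKM in knockout libraries and 0.118, 0.189 and 0.463 FPKM in GFP-Rgnef libraries. These values rest on 2 to 8 reads per library, fell below the filter on low values and were not tested. Of the 2744 exon bases annotated to Ilk, 2106 are shared with Taf10 and 355 with Rrp8, both on the opposite strand. Taf10 stood at 60.7 to 65.8 FPKM in knockout and 42.2 to 50.8 FPKM in GFP-Rgnef libraries. Of 172 protein coding genes with at least 75% of their exon bases shared with 1 other gene, 80.2% had a mean below 0.5 FPKM, against 55.8% of the 15110 genes with no shared bases. Whether reads of Ilk were set aside in counting was not tested, and nothing about Ilk RNA is read from these values.

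The signalling adaptors did not pass the test. Pxn (ENSMUSG00000029528, chromosome 5, 115506676 to 115555987, plus strand), which encodes paxillin, had 118, 103 and 101 FPKM in knockout libraries, against 125, 135 and 122 FPKM in GFP-Rgnef libraries. The groups did not overlap, but the gap between them was narrow and the difference of -0.25 (SE 0.079) gave a limma adjusted p of 0.075. Without knockout 1, the highest of the knockout libraries, the difference was -0.32 with a limma adjusted p of 0.0413. Src (ENSMUSG00000027646, chromosome 2, 157418444 to 157471862, plus strand), the kinase that phosphorylates paxillin, p130Cas and caveolin-1, had 63.7, 53.9 and 62.2 FPKM in knockout libraries and 70.2, 69.9 and 64.8 FPKM in GFP-Rgnef libraries. Here too the knockout libraries were all lower, by a difference of -0.19 (SE 0.081, limma adjusted p = 0.168). Bcar1 (ENSMUSG00000031955, chromosome 8, 111710474 to 111743809, minus strand), the p130Cas gene, had 84.4, 74.8 and 73.0 FPKM in knockout libraries and 81.0, 78.1 and 65.2 FPKM in GFP-Rgnef libraries. The groups overlapped broadly, with a difference of 0.05 (SE 0.098, limma adjusted p = 0.783) whose sign turned when knockout 1 or GFP-Rgnef 3 was left out.

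Zyx and Cav1 rose by like amounts. Zyx (ENSMUSG00000029860, chromosome 6, 42349630 to 42360213, plus strand), a LIM domain protein that recruits actin assembly factors, had 117, 116 and 106 FPKM in knockout libraries, against 88.0, 85.5 and 77.3 FPKM in GFP-Rgnef libraries. The lowest knockout library stood above the highest GFP-Rgnef library, and the difference was 0.43 (SE 0.073, limma adjusted p = 0.00833). Zyx shares 236 of 5390 exon bases with Epha1 on the opposite strand, which stayed at or below 0.307 FPKM. Cav1 (ENSMUSG00000007655, chromosome 6, 17306335 to 17341452, plus strand), the structural protein of caveolae, had 438, 479 and 492 FPKM in knockout libraries, against 333, 327 and 380 FPKM in GFP-Rgnef libraries. The groups were again separate, and the difference was 0.44 (SE 0.079, limma adjusted p = 0.0101). The Cav1 call did not hold without knockout 2 (limma adjusted p = 0.0502) or without GFP-Rgnef 2 (0.0533), while the calls of Zyx and Parva held with any 1 library left out.

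**Figure D2:**
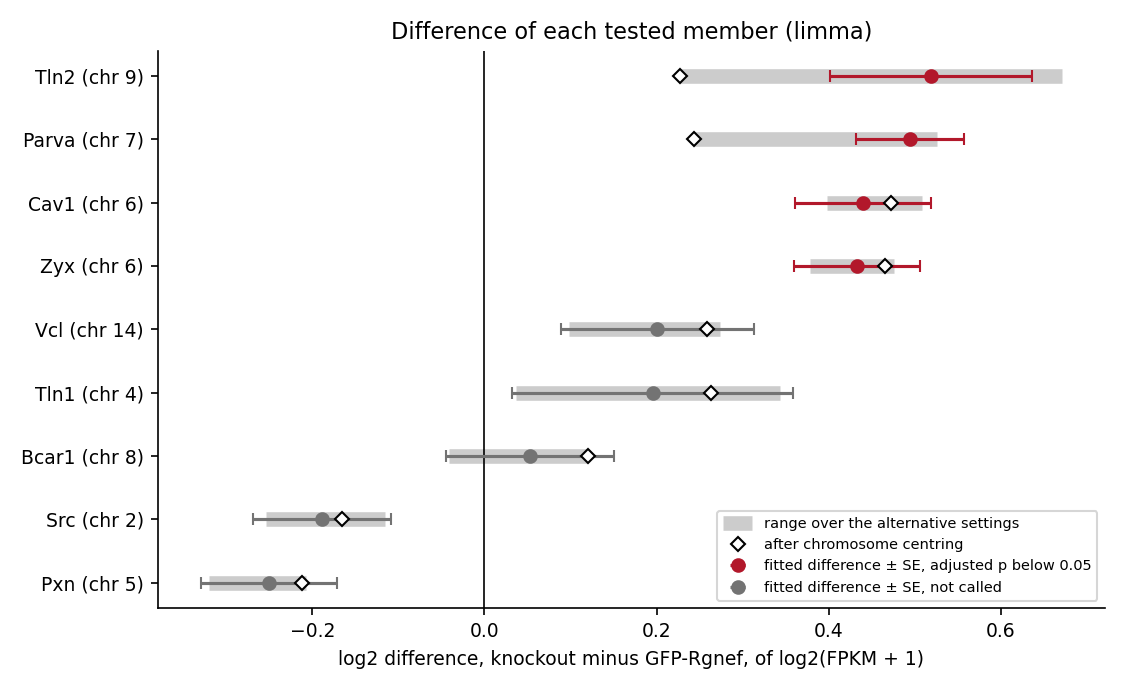
Fitted log2 difference, knockout minus GFP-Rgnef, of each tested member with its SE (red: adjusted p below 0.05), the range over the alternative settings (grey band) and the value after chromosome centring (diamond). Centring moves Tln2 and Parva to 0.23 and 0.24 and leaves Cav1 and Zyx at 0.47 and 0.47.

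Promoter windows from RefSeq (GRCm38.p6, 250 bases before to 50 after an annotated start) covered 7 of the 10 members, all but Parva, Pxn and Tln2, with 10 windows in all. They are shown for Cav1 and Zyx, which both passed as higher, and for Vcl, which did not pass. The windows of Src, Tln1 and Bcar1, which did not pass either, and of Ilk are not shown. The Vcl window is the one of the 10 windows with a CArG box, the element bound by serum response factor. Capitals mark matches on either strand to the CArG box, the TEAD motif GGAATG, the AP-1 motif TGANTCA and the GC box GGGCGG.
Cav1, chr6:17306085-17306384, plus strand: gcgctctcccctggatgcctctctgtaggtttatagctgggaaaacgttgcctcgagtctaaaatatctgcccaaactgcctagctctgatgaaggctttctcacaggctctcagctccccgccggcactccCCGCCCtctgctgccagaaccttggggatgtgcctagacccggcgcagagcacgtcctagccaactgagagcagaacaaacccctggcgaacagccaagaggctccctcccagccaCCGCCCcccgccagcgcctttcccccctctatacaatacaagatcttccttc
Zyx, chr6:42349578-42349877, plus strand: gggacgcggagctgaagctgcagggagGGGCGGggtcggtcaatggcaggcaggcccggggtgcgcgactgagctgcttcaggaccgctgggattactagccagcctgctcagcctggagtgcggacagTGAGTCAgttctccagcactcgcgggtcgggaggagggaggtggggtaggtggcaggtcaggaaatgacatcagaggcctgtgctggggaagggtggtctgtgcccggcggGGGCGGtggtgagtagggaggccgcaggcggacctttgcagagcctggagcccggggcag
Vcl, chr14:20929148-20929447, plus strand: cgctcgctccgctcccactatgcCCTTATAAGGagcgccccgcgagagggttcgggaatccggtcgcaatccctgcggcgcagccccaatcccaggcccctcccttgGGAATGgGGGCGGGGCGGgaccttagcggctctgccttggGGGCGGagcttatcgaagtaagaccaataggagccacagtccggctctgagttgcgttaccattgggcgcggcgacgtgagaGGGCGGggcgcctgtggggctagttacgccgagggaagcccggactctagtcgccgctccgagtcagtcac
The Cav1 window shown holds 2 GC boxes, while that of a second annotated Cav1 start, chr6:17307390-17307689, holds no match to any of the motifs. The Zyx window holds 1 AP-1 motif and 2 GC boxes, and the Vcl window 1 CArG box, 1 TEAD motif and 4 GC boxes, a pair of which overlap each other. Among 32851 windows of all genes, 1.63% hold a CArG box, 14.7% the TEAD motif, 7.81% the AP-1 motif and 35.7% a GC box. Those windows are not matched in base composition, with a median of 52.7% G and C against 67.5% in the windows of the members. These matches describe the letters of the windows and not binding.

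Tln2 and Parva lie on chromosomes where many genes were higher in knockout cells. On chromosome 9, which holds Tln2, 36.6% of 639 tested genes passed as higher, and on chromosome 7, which holds Parva and Ilk, 28.8% of 819 did. On chromosome 6, which holds Zyx and Cav1, 4.35% of 529 did. The share was 3.07% on the chromosome of Tln1, 3.75% on that of Vcl, 2.99% on that of Pxn, 4.99% on that of Src and 3.08% on that of Bcar1. When each chromosome's median deviation was removed from each library, Tln2 differed by 0.23 (SE 0.117) and lost its call (limma adjusted p = 0.299), and Parva differed by 0.24 (SE 0.059) and kept it (0.0446). Cav1 and Zyx differed by 0.47 (SE 0.074) and 0.47 (SE 0.079), with limma adjusted p of 0.00763 and 0.0105. Among the 6 nearest tested protein coding genes around each member, 4 rose beside Parva, namely Eif4g2, Usp47, Mical2 and Tead1, and 3 beside Tln2, namely Lactb, Tpm1 and Anxa2. Mical2, an actin oxidising enzyme gene, averaged 199 FPKM in knockout and 105 FPKM in GFP-Rgnef libraries, a log2 difference of 0.92. Beside Cav1 the one neighbour that rose was Met, the hepatocyte growth factor receptor gene, and beside Zyx it was Fam131b, at 1.43 FPKM in knockout and 0.373 FPKM in GFP-Rgnef libraries. Taf10 and Mrpl17 rose beside Ilk, and Adk rose beside Vcl. The immediate neighbour Cav2 is described with the caveola genes.

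Within the groups the members also varied with the library. In both groups the library numbered 3 was the lowest for Pxn, Bcar1, Tln1, Vcl and Zyx, which is 5 of the 9 tested members, while 22.2% of all tested genes had that pattern. For Cav1 the library numbered 3 was the highest in both groups, as for 26.0% of all tested genes. When both libraries numbered 3 were left out, Cav1, Zyx, Parva and Tln2 again passed as higher. With the replicate number fitted as a block, the limma adjusted p was 0.0518 for Tln1 and 0.0472 for Vcl. The part that these library differences have in the uncalled values of both genes was not tested further.

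In deposited FPKM, Cav1 was the most abundant member in both groups, at 470 ± 28.5 FPKM in knockout and 347 ± 29.3 FPKM in GFP-Rgnef libraries (SD, n = 3 each), followed by Tln1. The length behind these FPKM matters for such an order. For 3984 of 8318 genes with several annotated transcripts and at least 100 reads in every library, the length implied by the values was within 1 base of the mean over all annotated transcripts, short fragments included, and for 26 it was within 1 base of the total exon length. For Tln1 the implied length was 1662 bases while the longest annotated transcript has 8393, and for Cav1 it was 925 against 2746. Reads per length of the longest transcript, scaled as FPKM are, put Cav1 first again, at 158 ± 9.60 in knockout and 117 ± 9.87 in GFP-Rgnef libraries (SD, n = 3 each), but Tln1 at rank 4 in knockout libraries (55.3 ± 11.9) and rank 5 in GFP-Rgnef libraries (47.95 ± 7.29). On that scale Zyx followed Cav1 in knockout libraries at 98.2, then Bcar1 at 78.1, Tln1, Vcl at 53.1, Pxn at 48.1, Parva at 36.1, Src at 35.4 and Tln2 at 3.73. The library ranges of Tln1 and Vcl, of Vcl and Pxn and of Parva and Src overlapped in knockout libraries, so those neighbours in the order are not told apart. In GFP-Rgnef libraries Bcar1 at 75.4 and Zyx at 72.6 overlapped, as did Tln1 with Vcl and Vcl with Src, and Parva at 25.5 was below Src at 40.4 with no overlap. The choice of length changes these levels between genes and leaves a gene's ratio between the groups as it is.

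**Figure D3:**
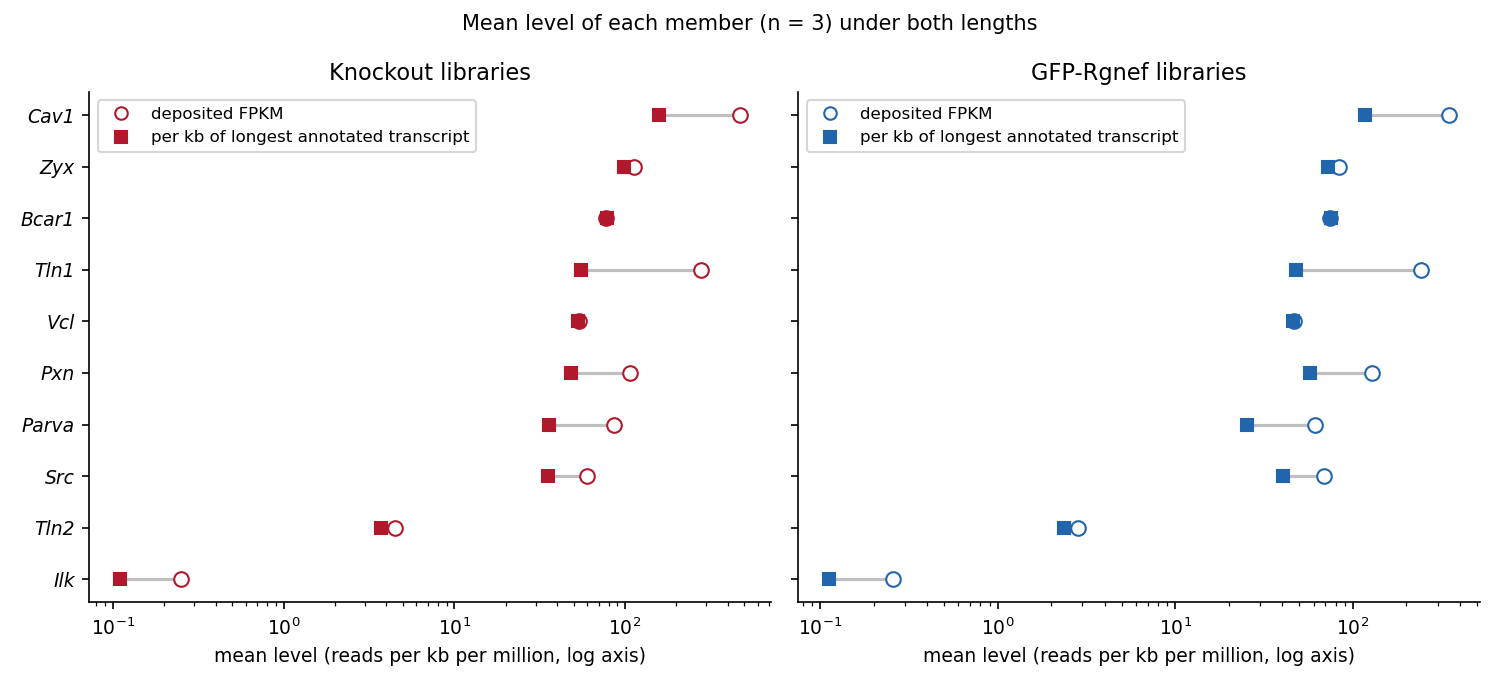
Mean level of each member in knockout libraries (red, left) and GFP-Rgnef libraries (blue, right) on a log axis, as deposited FPKM (open circles) and per length of the longest annotated transcript (squares). In knockout libraries Tln1 stands at 279 as deposited and at 55.3 per longest transcript, while those of Bcar1 and Vcl hardly move.

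Other genes of the adhesion plaque and of caveolae were followed in 5 lists of 64 genes, of which 49 were tested. Of these 8 rose and 2 fell in knockout cells by the same test (10 and 2 by voom), where 8.04% of all tested genes rose and 5.34% fell. The median difference was 0.10. Of the 8 that rose, 6 lie on chromosome 7 or 9, where 6 of the 10 tested list genes and 32.2% of all tested genes rose. On other chromosomes 2 of the 39 list genes rose, a share near the 4.53% of all tested genes there. Exons of Elmo1, Actn4, Pacsin3 and Tes share 42 to 403 bases with a gene on the opposite strand.

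The caveola list held both of those 2, and 2 of its 7 tested genes rose, with a median difference of 0.26. That median is the value of Cavin3 on chromosome 7, where the median over all tested genes was 0.24. Ehd2, with a difference of 0.50, lies on chromosome 7 too, and neither gene passed (limma adjusted p = 0.14 and 0.0578). By limma 0 fell, with 0 also before adjustment at a p of 0.05, and voom gave 0. Cavin2, a coat protein of caveolae, had 7.39, 7.71 and 6.88 FPKM in knockout libraries, against 2.56, 2.51 and 2.33 FPKM in GFP-Rgnef libraries. Every knockout library was above every GFP-Rgnef library, with a difference of 1.26 (SE 0.093, limma adjusted p = 0.000262). Pacsin3, a membrane-bending protein of the same pits, averaged 6.08 ± 0.106 FPKM in knockout and 3.18 ± 0.120 FPKM in GFP-Rgnef libraries (SD, n = 3 each), a difference of 0.76 (SE 0.087, limma adjusted p = 0.00198). Both are scarce beside Cav1 and Cavin1, the major caveola coat gene, which averaged 401 ± 12.3 FPKM in knockout and 372 ± 23.8 FPKM in GFP-Rgnef libraries and did not pass (difference 0.11, SE 0.066, limma adjusted p = 0.333). Cav2, the partner of caveolin-1, had 80.5, 99.98 and 129 FPKM in knockout libraries and 76.8, 72.7 and 134 FPKM in GFP-Rgnef libraries. In both groups the library numbered 3 was the highest, and the difference of 0.15 (SE 0.244) did not pass (limma adjusted p = 0.741). Cavin1, Cavin3, Ehd2 and Cav2 were picked for mention after their values were seen.

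In the list of kinases and scaffolds 2 of 16 tested genes rose and 1 fell. Ptk2b, the paralogue of focal adhesion kinase, was left out by the filter on low values, with 43, 40 and 39 reads in knockout libraries and 8, 7 and 3 reads in GFP-Rgnef libraries. Its level was 0.783 ± 0.0160 FPKM in knockout and 0.121 ± 0.0546 FPKM in GFP-Rgnef libraries (SD, n = 3 each), and without the filter its difference was 0.67 (SE 0.057, limma adjusted p = 0.00403). Ptk2, the gene of focal adhesion kinase itself, averaged 45.6 ± 0.515 FPKM in knockout and 44.0 ± 0.715 FPKM in GFP-Rgnef libraries. It did not pass (difference 0.05, SE 0.059, limma adjusted p = 0.655). Ptk2b and Ptk2 were picked for mention after their values were seen. Dock1, which activates Rac downstream of p130Cas and Crk, averaged 12.5 ± 0.499 FPKM in knockout and 7.09 ± 0.568 FPKM in GFP-Rgnef libraries, a difference of 0.75 (SE 0.087, limma adjusted p = 0.00221). It lies on chromosome 7 and kept its call after centring (difference 0.49, limma adjusted p = 0.0112). Elmo1, the partner of Dock proteins, fell to 10.7 ± 1.44 FPKM in knockout libraries, against 15.8 ± 0.696 FPKM in GFP-Rgnef libraries (difference -0.53, SE 0.102, limma adjusted p = 0.0134). Csk, the kinase that inhibits Src, averaged 24.3 ± 1.21 FPKM in knockout and 19.2 ± 1.02 FPKM in GFP-Rgnef libraries, with a log2 difference of 0.32 that passed (limma adjusted p = 0.0293) and was 0.03 after centring of its chromosome 9 (limma adjusted p = 0.872). All SDs here are over 3 libraries.

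Among actin linkers 3 of 15 rose and 1 fell. Kank2, an adaptor that binds talin, averaged 49.1 ± 3.73 FPKM in knockout and 36.7 ± 0.410 FPKM in GFP-Rgnef libraries, and Actn4, the actin crosslinker alpha-actinin-4, averaged 658 ± 43.3 FPKM in knockout and 504 ± 22.99 FPKM in GFP-Rgnef libraries (limma adjusted p = 0.00968 and 0.0102, SD over 3 libraries). With Ppfia1, a liprin of the adhesion edge, they lie on chromosomes 7 and 9, and after centring the 3 differed by 0.09 to 0.13 with limma adjusted p of 0.266 to 0.499. Tns4, a tensin that lacks the actin binding part of the family, fell to 2.09 ± 0.331 FPKM in knockout libraries, against 4.43 ± 1.66 FPKM in GFP-Rgnef libraries (difference -0.78, SE 0.205, limma adjusted p = 0.0425, and 0.0821 after centring). Among 7 LIM proteins related to paxillin and zyxin, Limd1 on chromosome 9 rose by 0.26 (limma adjusted p = 0.0392, and 0.85 after centring). In that list 0 fell by limma or voom, with 2 at an unadjusted p below 0.05, and Tes averaged 105 ± 8.35 FPKM in knockout and 123 ± 9.04 FPKM in GFP-Rgnef libraries (limma adjusted p = 0.106). Of the 4 tested PINCH, parvin and kindlin genes 0 passed by limma or voom in either direction, with 1 in each direction at an unadjusted p below 0.05. The PINCH gene Lims1 averaged 90.4 ± 12.8 FPKM in knockout and 86.8 ± 14.4 FPKM in GFP-Rgnef libraries, and the kindlin gene Fermt2 averaged 71.9 ± 3.90 FPKM in knockout and 82.9 ± 4.15 FPKM in GFP-Rgnef libraries (SD, n = 3 each).

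**Figure D4:**
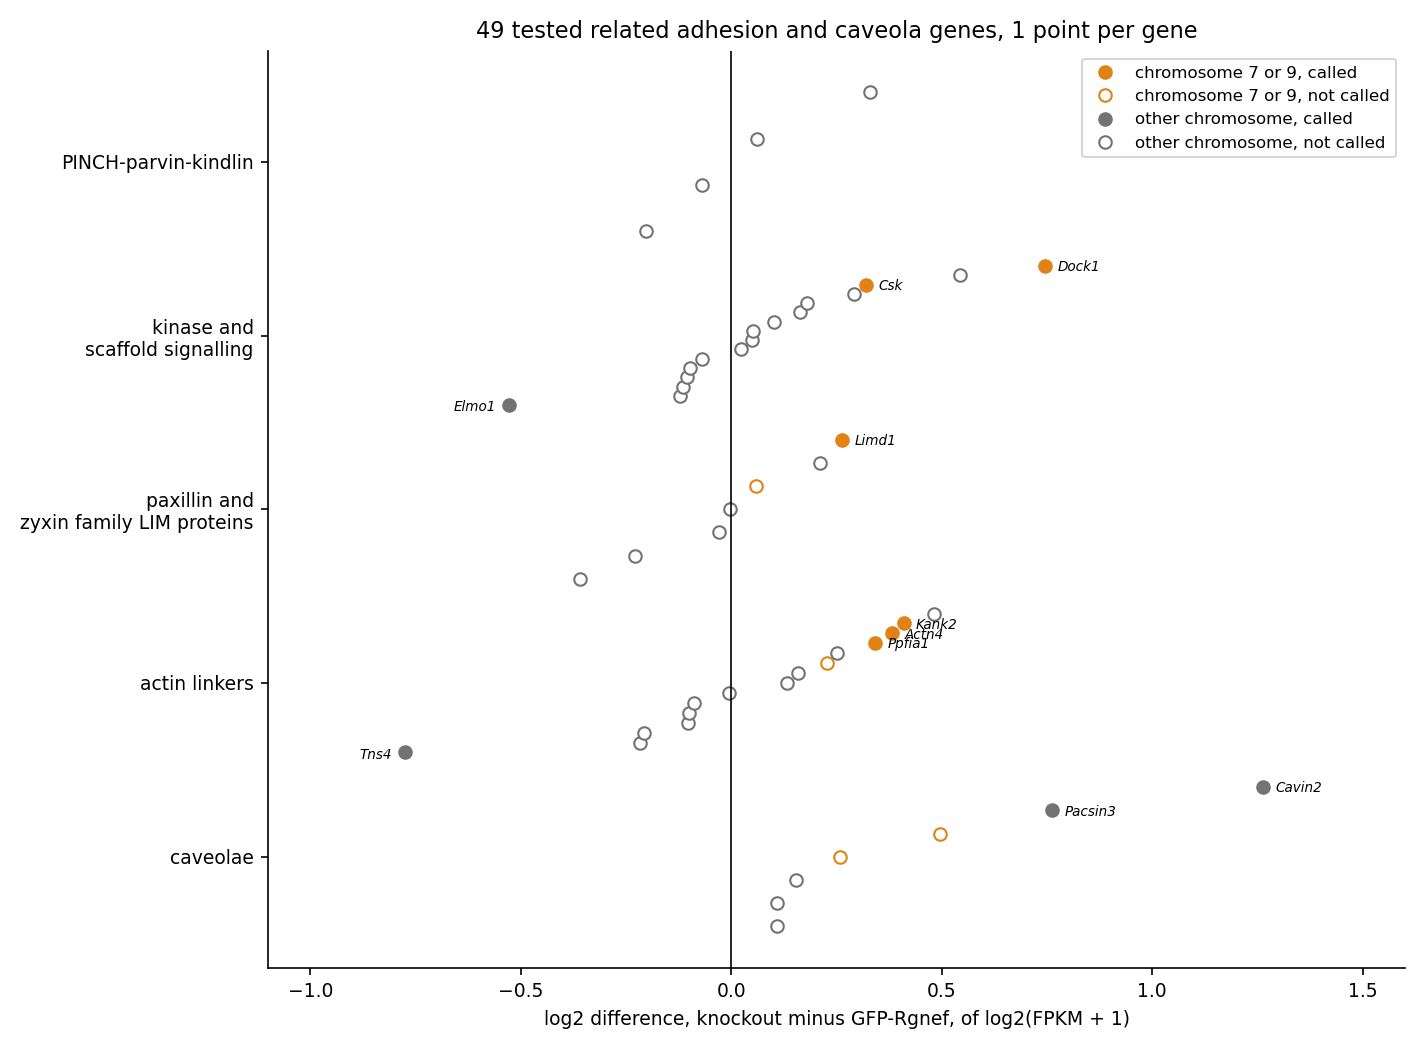
Log2 difference, knockout minus GFP-Rgnef, of the 49 tested related genes by list, filled where the adjusted p is below 0.05 and orange for chromosomes 7 and 9. The 6 orange filled points are Csk, Dock1, Limd1, Kank2, Actn4 and Ppfia1, and Cavin2 has the highest value at 1.26.

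The genes whose pattern was most like that of a called member were found by the distance between deviations of log2(FPKM + 1) from the gene's own mean over the 6 libraries. For Cav1 they were Morf4l1, Slitrk5 and Tipin, for Zyx they were Pias1, Qrich1 and Aen, for Parva they were Galnt4, Selp and H2afy2, and for Tln2 they were Col4a1, Osbpl5 and Tnk2. Distances ran from 0.036 for Parva and Galnt4 to 0.118 for Tln2 and Tnk2. Galnt4 averaged 6.59 ± 0.220 FPKM in knockout and 4.39 ± 0.174 FPKM in GFP-Rgnef libraries, and Col4a1, the first of the Tln2 list, 88.6 ± 5.55 FPKM in knockout and 60.2 ± 6.01 FPKM in GFP-Rgnef libraries (SD, n = 3 each). With 6 libraries in 2 groups, genes with a like difference between the groups are near each other on this measure.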

How the data were processed

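Poly-T selected RNA of 6 ID8-KMF libraries was sequenced, and the authors deposited 1 table of FPKM for 35275 Ensembl genes. The submitters' processing notes name CASAVA 1.8, TopHat2 2.0.9, DESeq2 and mm10. The sources used here do not give which tool made which value, the annotation or the use of strand. Symbols, coordinates and transcript lengths came from GENCODE M21 (GRCm38, the assembly of mm10), which matched 34490 identifiers. Low values step in whole reads: a length that made all 6 values whole within 0.02 reads existed for all 19655 genes listed above 0, the mean annotated transcript length for 9250 and the smallest such length for 10283. The reads summed to 99.59% to 99.62% of the implied depths, and relative counting error is larger for genes with few reads.

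limma 3.58.1 with trend (R 4.3.3) was fitted to log2(FPKM + 1) over all 11500 genes with a mean of at least 0.5 FPKM, without a block, with Benjamini-Hochberg adjustment and calls below 0.05. A fold on this scale understates changes of low genes. Alternatives covered pseudocounts of 0.1 and 0.5, the filter, 2 scalings, the trend, a block for replicate number, omission of any 1 library or of both numbered 3, chromosome centring and voom in limma on recovered reads. The members, the related lists and the alternatives were chosen with earlier results of these data known. Named genes were the 10 members, Arhgef28, up to 4 called genes of each related list (filled to 2 with the most abundant), 3 like genes per called member and called genes among the 6 neighbours. On simulated data with 200 changed genes, limma recovered 86.4% of the 1.5-fold, 95.5% of the 2-fold and 100% of the 4-fold changes and made 14 false calls in 11444 genes. The simulated libraries were independent, with a common dispersion for every gene and no effect shared by libraries or along a chromosome. These rates therefore need not hold for the deposited libraries, which differ in those respects. No change below 1.5-fold was simulated, and the fitted folds of the called members were 1.35 to 1.43, so the rates do not cover changes of that size. Python 3.11.15, pandas 2.3.3 and matplotlib 3.10.9 made the tables and plots.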

Additional observations from a re-analysis of the deposited data

How the results depend on the processing

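Zyx and Parva passed as higher under all 17 alternatives, Cav1 under 15 of 17 and Tln2 under 11 of 16, and all 4 kept their direction. The cause of each change below was not tested, except that leaving out a library leaves fewer samples. Members passing as higher numbered 4 and ranged from 2 to 4 with 1 library left out (2 without knockout 2 or without GFP-Rgnef 2), and those passing as lower numbered 0 and ranged from 0 to 1. Their differences changed sign only for Bcar1, to between -0.0415 and 0.113 with 1 library left out (-0.0106 without knockout 1) and to -0.0012 with only the libraries numbered 1 and 2. With 1 library left out, all genes passing as higher numbered 458 to 848 (925 with all) and as lower 198 to 580 (614 with all), and related genes numbered 5 to 10 and 0 to 3. Without a filter 394 genes fell. Chromosome centring left 491 higher and 384 lower, and 5 and 1 of the related genes. With only the libraries numbered 1 and 2, 1059 genes fell, and 13 related genes rose and 4 fell. Just 1 related gene fell without a filter, at a mean of at least 5 FPKM or without trend. Per longest transcript, an alternative added after the data were seen, the Tln2 share differed by 1.75 percentage points in place of 0.454 (0.31 to 0.56 with 1 library left out).

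Same-numbered libraries deviated from their group means with correlations of 0.32, -0.02 and 0.55, and knockout 1 correlated best with GFP-Rgnef 2 (0.40). Knockout 3 correlated at -0.46 and -0.30 with GFP-Rgnef 1 and 2, and GFP-Rgnef 3 at -0.52 and -0.20 with knockout 1 and 2. Deviations from a group mean cancel within the group, so these negative values partly follow from the 0.55 and add little to it. By that 0.55 the libraries numbered 3 shared a pattern, which the main fit leaves out. Numbers 1 and 2 are not taken to pair the libraries. With the replicate number as a block, 1517 genes passed as higher and 1253 as lower, with 5 and 1 of the members and 18 and 5 of the related genes. The members added by the block were Vcl (limma adjusted p = 0.0472) and, as lower, Pxn (0.023). The Tln2 share differed by 0.454 percentage points over the same-numbered pairs, with a sign-flip exact p of 0.25, the smallest that 3 pairs can give. Ilk had 2 to 8 reads per library and Tln2 had 411 to 884, and the part of depth in their values was not tested.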
